A study of Passer montanus with 72 samples.

Results

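Gene expression in the caudal hippocampus of male Eurasian tree sparrows (Passer montanus) was compared with that of females. The members of the comparison were 23 of the 72 libraries of the series, 13 from birds labelled male and 10 from birds labelled female, each a different bird. Birds were chosen by their label and by measured counts of CHD1W, a gene of the female-specific W chromosome. A further library labelled female, from bird 260, was left out because it held none. The birds were wild-caught and kept in captivity, and the series sampled the caudal hippocampus, the rostral hippocampus and the striatum of each of them. The title of the series ties the work to neophobia, the avoidance of new things, but the labels carry no behavioural score, treatment or age, so sex was the only contrast examined here. Genes are reported in 3 classes, namely 1084 genes on the sequence that carries SMAD2 (the Z chromosome), 165 genes on the sequence that carries CHD1W (the W chromosome) and 20708 genes on neither sequence.

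In birds the male carries a pair of Z chromosomes and the female carries a single Z and a W. Unlike mammals, birds do not silence a whole Z chromosome in males, and Z genes are known to be higher in males in most tissues, with partial, gene-by-gene balancing in females. The W has lost most of its genes, and the survivors are mostly housekeeping genes that keep a related copy on the Z. The avian hippocampus lies in the medial pallium, beside the lateral ventricle, and serves spatial memory. Its neighbours include the choroid plexus, which makes cerebrospinal fluid and secretes transthyretin, and the meninges, which synthesise retinoic acid.

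Each library held 2905849 to 4461916 counts in males and 2629433 to 4179628 in females, with 11074 to 11518 genes detected in males and 10760 to 11439 in females. The tissue label was checked with SLC17A6, the glutamate transporter of pallial neurons, at 1011 ± 167 CPM (counts per 1e6 of the library total) over the 23 caudal libraries against 54.3 ± 57.6 CPM over the striatal libraries of the same birds. ISL1, a transcription factor of striatal neurons, was at 0.196 ± 0.790 CPM in the caudal hippocampus and 84.5 ± 28.6 CPM in the striatum, while SLC17A7, another vesicular glutamate transporter, was near 0 in both. In the rostral hippocampus SLC17A6 was at 1222 ± 160 CPM and ISL1 at 0.185 ± 0.338 CPM. These markers thus separate hippocampus from striatum, but not its caudal from its rostral part. In bulk tissue, fewer cells of a type and less RNA per cell cannot be told apart. The library of male 8 stood apart from the other males in the number of calls made without it, and that of bird 260 in its sex-chromosome counts, so counts that either of them moves are given with and without it.

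The W genes separated the sexes completely. CHD1W, a chromatin remodeller commonly used to sex birds, had 0 counts in all 13 males and 101 to 159 counts in the 10 females, and 0 in bird 260. The summed level of the W genes was 30.0 ± 8.23 CPM in males (16.1 to 43.7) and 2071 ± 118 CPM in females (1873 to 2260.3). Bird 260 had 26.5 CPM, inside the male range. The CHD1W count of bird 260 decided its exclusion, so these W levels are a description with no test. Of the 165 W genes, 46 had any count in the 23 libraries. The W copy of ATP5F1A, a subunit of mitochondrial ATP synthase, was the highest, at 0.155 CPM in males and 558 ± 48.4 CPM in females. It was followed by the W copies of VCP, a protein-unfolding ATPase, at 306 ± 30.5 CPM in females, and of HNRNPK, an RNA-binding protein, at 189 ± 14.7 CPM in females. Males had 13.4 CPM assigned to the VCP copy, a large share of their W counts, and the counts of near-identical Z and W copies may be split uncertainly.

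Z genes as a group were higher in males. Summed Z expression was 22169 ± 696 CPM in males (21136 to 23069) and 14024 ± 609 CPM in females (13126 to 14684), a ratio of the means of 1.58. The mean log2 CPM of Z genes minus that of genes on neither sequence was -0.45 ± 0.06 in males (-0.55 to -0.36) and -1.19 ± 0.08 in females (-1.37 to -1.11). No male overlapped a female on either measure. Bird 260, labelled female, lay at 20155 CPM and -0.60, above every female and just below the lowest male.

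**Figure D1:**
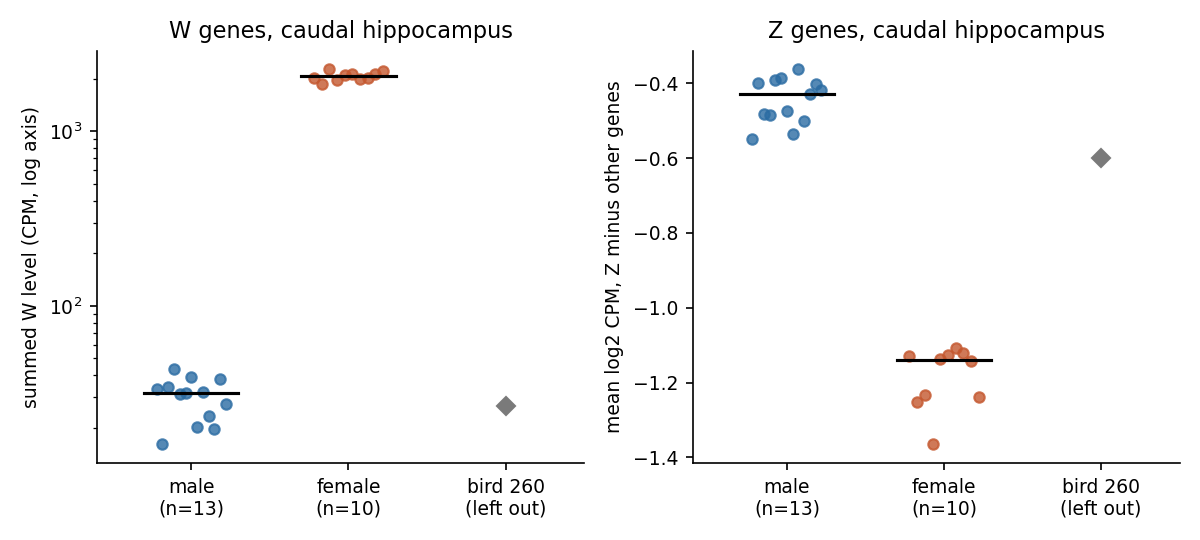
Left, summed level of W genes in CPM on a log axis; right, mean log2 CPM of Z genes minus that of genes on neither sequence; each point is the caudal hippocampus of a bird and the bar is the group median (13 males, 10 females). Males and females do not overlap in either panel, and bird 260 (diamond, labelled female and left out) sits among the males at 26.5 CPM on the left and just below them at -0.60 on the right.

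Of the 388 Z genes with enough counts to be tested, 229 rose in males, which is 59% of them, and 0 fell. No Z gene was lower in males even at an unadjusted p under 0.05 in edgeR, DESeq2 or limma voom. The same test called 3.37% of all 8926 genes. The median log2 fold over the 388 Z genes, called or not, was 0.77 (quartiles 0.48 and 0.99), a 1.71-fold difference, and 376 of the 388 lay above 0. The median over the 8506 tested genes on neither sequence was -0.01. A log2 fold of 1, the ratio of chromosome copies, was exceeded by 91 Z genes. In 55 Z genes (14.2% of those tested) every male was above every female, which held for 0 of the 8506 genes on neither sequence. The 229 called genes spanned log2 folds of 0.25 to 2.29. The median log2 fold was 0.94 in the 130 Z genes of lowest level (2.40 to 10.3 CPM), 0.73 in the middle 129 and 0.70 in the highest 129 (33.6 to 581 CPM), and the shares called were 42.3%, 57.4% and 77.5%. A gene could pass the filter on low counts through the males alone, which favours genes higher in males near the lowest levels. How far this shaped the median of the lowest group was not tested. With bird 260 kept among the females, 190 of 383 Z genes were called (49.6%) and the median was 0.70. The Z level of that bird lay above every female, so placing it among them lowers Z folds in general. Calls of Z genes lost in that fit are to be read with this limit.

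**Figure D2:**
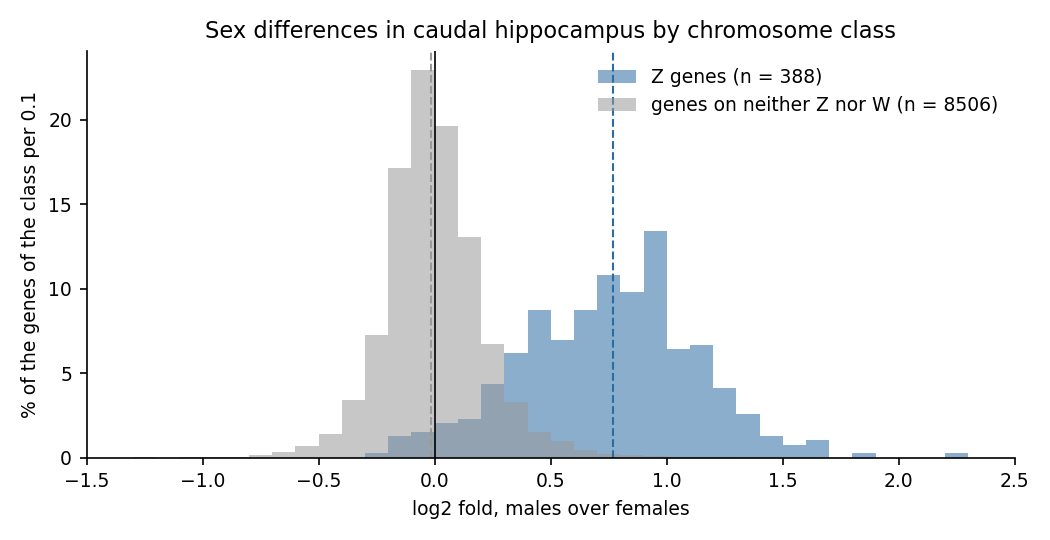
Histogram of fitted log2 folds (males over females) in caudal hippocampus for 388 Z genes and 8506 genes on neither sequence, as the percentage of each class in bins of 0.1; dashed lines mark the medians, 0.77 and -0.01. The axis ends at -1.5 and 2.5, so TTR (5.75) lies outside it; 376 Z genes lie above 0.

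The 10 Z genes with the smallest p-values were all separated without overlap and had log2 folds of 0.83 to 1.21. SPIN1, a reader of histone methylation, had 455, 528 and 599 CPM in males (lowest, median and highest) and 209.9, 260.4 and 331 CPM in females. Its log2 fold was 0.97 ± 0.06 (SE, adjusted p = 1.97e-12). SNX2, a sorting nexin of the retromer that recycles endosomal cargo, had 176 to 231 CPM in males (median 198) and 85.3 to 106 CPM in females (median 99.4), with a log2 fold of 1.01 ± 0.07 (SE, adjusted p = 5.24e-12). SMAD2, which carries transforming growth factor beta signals to the nucleus, had 121 to 161 CPM in males (median 150.1) and 59.6 to 88.8 CPM in females (median 76.1), with a log2 fold of 0.92 ± 0.07 (SE, adjusted p = 8.78e-11). In each of these 3 genes the lowest male stood above the highest female. The Z gene annotated as KCMF1, a ubiquitin ligase, averaged 178 ± 13.7 CPM in males and 98.1 ± 7.16 CPM in females (SD, n = 13 and 10), with a log2 fold of 0.83 ± 0.07 (SE, adjusted p = 2.97e-10). SMARCA2, an ATPase of the SWI/SNF chromatin remodelling complex, averaged 342 ± 57.5 CPM in males and 168 ± 25.1 CPM in females, with a log2 fold of 0.99 ± 0.09 (SE, adjusted p = 1.56e-09). NAA35, a subunit of an N-terminal acetyltransferase, averaged 99.8 ± 19.8 CPM in males and 42.1 ± 7.33 CPM in females, the largest difference of the 10 at 1.21 ± 0.11 (SE, adjusted p = 2.9e-09). The zinc transporter SLC30A5, the tubulin chaperone TBCA, the Z gene annotated as RGS7BP (a partner of RGS proteins at the membrane) and ZSWIM6 rose by 0.86, 1.03, 0.96 and 0.99 on the log2 scale. All 10 calls were kept in every alternative.

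The largest log2 folds among called Z genes named by rule included those of EPG5, RIT2, KLF4, CREB3 and ADAMTS6. EPG5, which acts in autophagosome fusion with lysosomes, had 22.2 to 123 CPM in males (median 56.3) and 9.45 to 40.9 CPM in females (median 17.2), with a log2 fold of 1.69 ± 0.24 (SE, adjusted p = 1.6e-05), and 11 of 13 males above all females. RIT2, a small GTPase of neurons, averaged 10.2 ± 4.62 CPM in males and 3.08 ± 1.86 CPM in females, with a log2 fold of 1.67 ± 0.34 (SE, adjusted p = 0.00155). CREB3, a transcription factor held in the endoplasmic reticulum membrane, averaged 7.58 ± 4.08 CPM in males and 2.39 ± 1.12 CPM in females, with a log2 fold of 1.60 ± 0.31 (SE, adjusted p = 0.000798). ADAMTS6, a secreted metalloprotease, rose with a log2 fold of 1.57, adjusted p = 0.00103. KLF4, a transcription factor, rose with a log2 fold of 1.63, adjusted p = 0.0247, but lost its call without female 19 (adjusted p = 0.0526) and with bird 260 included (log2 fold 1.38, adjusted p = 0.0855). Apart from EPG5 these are low-count genes, at under 20 CPM in the mean of either sex. At such levels the filter on low counts could be passed through the males alone, so large folds in this direction are favoured. Of the microglial genes on the list for this tissue, CSF1R averaged 6.78 ± 2.41 CPM in males and 8.21 ± 5.86 CPM in females (log2 fold -0.31, adjusted p = 0.745), and TMEM119, CX3CR1 and C1QC averaged under 0.5 CPM in both sexes.

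Z genes with a surviving W copy were examined with and without the counts of that copy. A W partner was found by gene name in the deposited annotation for 31 Z genes whose copies together reached 10 CPM. In these pairs the Z copy alone had a median log2 ratio of means of 0.93, males over females, and the sum of both copies a median of 0.05. The summed level overlapped between the sexes in 24 of 31 pairs, was higher in every male in 3 and lower in every male in 4. The log2 ratio of the sums was within 0.25 of 0 in 12 pairs, above 0.25 in 14 and below -0.25 in 5. For the Z copies alone, all males lay above all females in 16 of 31 pairs, against 14.2% of all Z genes tested. These shares are not matched for level, since a pair had to reach 10 CPM whereas Z genes were tested from 2.40 CPM upward. These pair sums are descriptions without a test, since they use the W counts. In the ATP5F1A pair the Z copy averaged 538 ± 62.5 CPM in males and 275 ± 51.6 CPM in females, and adding the W copy gave 538 CPM in males and 834 CPM in females. The female sum thus exceeded the male sum in every bird. HNRNPK and KCMF1 had the same order, with sums of 184 and 178 CPM in males and 295 and 218 CPM in females. The remaining pair of this kind, BTF3, had almost no count on its Z copy (1.04 CPM in males and 0.439 CPM in females), so its sum is almost wholly the W copy. Why its Z copy had so few counts was not tested, and its sum is a poor measure of the pair.

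Several pairs summed to nearly equal levels. MIER3, a transcriptional corepressor, had a summed 93.4 ± 15.0 CPM in males and 98.4 ± 14.1 CPM in females. TNPO1, a nuclear import receptor, had 93.8 ± 13.7 CPM in males and 98.7 ± 17.6 CPM in females, and RASA1, an inhibitor of Ras, had 57.9 ± 7.99 CPM in males and 61.0 ± 12.7 CPM in females. In all 3 the difference in sums was smaller than the spread between birds. At the other end, the W copy of SPIN1 gave only 23.2% of the pair in females, and the sum stayed at 526 CPM in males and 341 CPM in females. SMAD2 (148 CPM in males and 97.2 CPM in females) and ZSWIM6 (111 CPM in males and 69.8 CPM in females) were likewise higher in every male after summing. Across the pairs the W share in females ran from 1.17% to 98.9% (median 45.9%), and per kilobase of transcript the W copy exceeded the Z copy in females in 13 of 31 pairs. The highest share is that of BTF3, with its nearly empty Z copy, and the next was 67.1% in ATP5F1A. For the Z copies themselves the fitted median was 0.89 for the 30 paired Z genes tested, of which 29 rose, and 0.75 for the 358 without a partner, of which 200 rose. No test of that contrast was made, and the paired and unpaired genes were not matched for level. Over all Z genes tested, those of higher level were called more often, and this was not examined within paired and unpaired genes apart.

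**Figure D3:**
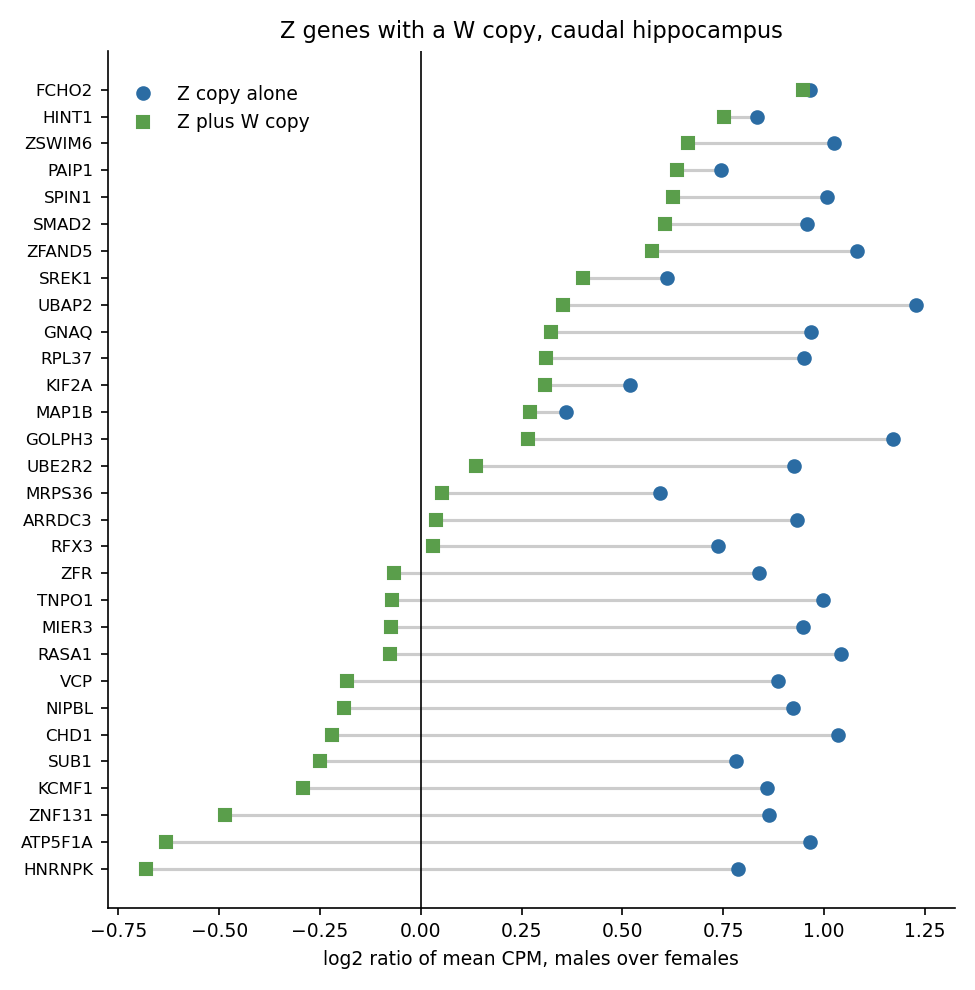
Log2 ratio of mean CPM, males over females, for 30 Z genes with a W copy in caudal hippocampus (13 males, 10 females), for the Z copy alone (circles) and for the Z and W copies summed (squares); BTF3 is not drawn because its Z copy is almost without counts. The circles all lie above 0, whereas the squares fall on both sides of it, with ATP5F1A and HNRNPK lowest.

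Among 26 tested neuronal genes of the Z, 11 rose in males and 0 fell, with a median log2 fold of 0.45, against 59% called and a median of 0.77 over all Z genes tested. GRIN3A, an NMDA receptor subunit, averaged 121 ± 29.1 CPM in males and 69.9 ± 10.1 CPM in females, with a log2 fold of 0.76 ± 0.12 (SE, adjusted p = 0.000114). VLDLR, a receptor for reelin, rose with a log2 fold of 0.74, adjusted p = 0.000286, a call lost with bird 260 included (log2 fold 0.54, adjusted p = 0.104). The Z level of bird 260 was itself above that of every female. NTRK2, the receptor of brain-derived neurotrophic factor, had 198 to 554 CPM in males (median 374) and 129.7 to 362 CPM in females (median 226), with a log2 fold of 0.66 ± 0.16 (SE, adjusted p = 0.0145). HOMER1, a postsynaptic scaffold and the 1 Z gene tested on the immediate early list, had 90.5 to 205 CPM in males (median 155) and 83.7 to 133 CPM in females (median 111), with a log2 fold of 0.42 ± 0.10 (SE, adjusted p = 0.00955). Of the males, 7 of 13 for NTRK2 and 10 of 13 for HOMER1 lay above all females. Both calls were lost when the mean level of choroid plexus and ependymal genes entered as a covariate (log2 fold 0.50, adjusted p = 0.0627 for NTRK2 and log2 fold 0.34, adjusted p = 0.0623 for HOMER1). The microtubule protein MAP1B differed little for its level, at 642 ± 67.5 CPM in males and 501 ± 31.7 CPM in females (log2 fold 0.32 ± 0.06 (SE, adjusted p = 0.00118)). MEF2C, CAMK4, APBA1, SHC3, SEMA6A and ARRDC3 also rose, by 0.40, 0.79, 0.47, 0.59, 0.47 and 0.89 on the log2 scale. The rostral log2 fold of MEF2C was -0.51 (adjusted p = 0.150).

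Some Z genes showed no difference between the sexes that passed the test. PTPRD, a receptor tyrosine phosphatase of synapses, averaged 226 ± 62.5 CPM in males and 168 ± 36.7 CPM in females (log2 fold 0.39, adjusted p = 0.186). SYT4, a synaptotagmin, averaged 78.0 ± 15.9 CPM in males and 60.7 ± 15.0 CPM in females (log2 fold 0.33, adjusted p = 0.241). The sexes overlapped in both, and 77.5% of the 129 Z genes of highest level were called. The Z gene annotated as TLE4, a corepressor, had 12.9 to 46.3 CPM in males (median 28.2) and 19.5 to 43.4 CPM in females (median 31.1), with a log2 fold of -0.16 ± 0.18 (SE, adjusted p = 0.793). RORB, LMAN1, ONECUT2 and ATP8B1 were also among the lowest folds of Z genes of at least 5 CPM, at -0.30, -0.17, -0.10 and -0.08, none called, and the signs of ONECUT2 and ATP8B1 changed with the processing. By contrast, 17 of 24 tested Z genes of other known functions rose, with a median of 0.94. NDUFS4, a subunit of respiratory complex I, averaged 112 ± 18.4 CPM in males and 56.2 ± 10.2 CPM in females (log2 fold 0.96, adjusted p = 7.08e-07), and DNAJA1, a co-chaperone, averaged 129 ± 28.0 CPM in males and 66.4 ± 13.1 CPM in females (log2 fold 0.93, adjusted p = 5.87e-06). Of 17 tested Z genes that keep a W copy in chicken, 16 rose, with a median of 0.92, and ZNF532 (log2 fold 0.12, adjusted p = 0.591) did not pass the test. DMRT1, the sex-determining gene of birds, had no count in any of the 23 libraries.

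Few genes on neither sequence differed, and 1 of those called lies on a sequence not placed on a chromosome. Of 8506 genes on neither sequence, 20 rose (0.235%) and 21 fell (0.247%) in males, 0.482% in all. The numbers moved with single libraries and with the scaling. Without male 8, 45 rose and 83 fell, and without male 2, 12 rose and 13 fell. The number that rose was 34 without female 14 and 13 without male 20. The number that fell was 33 without male 11, 34 without female 21, 13 without male 9, 12 without female 1, 12 without female 6 and 10 without female 4. With scaling factors computed only from genes on neither sequence, 25 rose and 12 fell. DESeq2 called 37 higher and 54 lower, and limma voom 13 higher and 32 lower. With bird 260 among the females, 17 rose (0.201%) and 25 fell (0.296%), 0.497% in all. SEMA3F, ADAMTS15, carbonic anhydrase 15 and a cystatin-like gene among those that rose, and CRKL, SH3GL3, PSMA4, DCUN1D4 and histone PARylation factor 1 among those that fell, were called in every alternative.

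TTR, which encodes transthyretin, the carrier of thyroid hormone and retinol-binding protein secreted by the choroid plexus, had the largest log2 fold of the genes named outside the sex chromosomes. It had 1.70, 709 and 2743 CPM in males (lowest, median and highest) and 1.20, 4.66 and 63.4 CPM in females. In all, 10 of 13 males lay above every female, while males 8, 261 and 262 were inside the female range at 1.70, 6.85 and 8.60 CPM. Bird 260 had 6.36 CPM. The log2 fold was 5.75 ± 0.97 (SE, adjusted p = 0.000158) in edgeR. The call did not hold in limma voom, which fits the log values (log2 fold 5.38, adjusted p = 0.262), and did hold with the level of the other choroid plexus and ependymal genes as a covariate (log2 fold 4.35, adjusted p = 0.00776). That covariate holds only genes that passed the low-count filter, and how well it measures choroid plexus content was not tested. In the rostral hippocampus TTR was at 1.58 ± 2.33 CPM in males and 0.383 ± 0.695 CPM in females, and in the striatum at 0.190 ± 0.529 CPM in males and 0.866 ± 2.31 CPM in females, below the low-count filter in both. The difference of the sex effects, caudal minus rostral, was 3.61 ± 1.80 (SE, adjusted p = 0.327), which did not pass the test.

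Transferrin (TF), which carries iron, and the genes ACKR3 and SOD3 followed. TF had 55.1, 229.9 and 825 CPM in males (lowest, median and highest) and 43.4, 95.0 and 182 CPM in females, with 8 of 13 males above all females and a log2 fold of 1.56 ± 0.37 (SE, adjusted p = 0.00835). ACKR3, a scavenging receptor for the chemokine CXCL12, had 4.57, 13.3 and 89.6 CPM in males (lowest, median and highest) and 1.71, 4.11 and 12.2 CPM in females, with 7 of 13 males above all females and a log2 fold of 2.37 ± 0.50 (SE, adjusted p = 0.00267). SOD3, an extracellular superoxide dismutase, had 0.681, 10.5 and 29.6 CPM in males (lowest, median and highest) and 0.479, 2.95 and 6.09 CPM in females, with 10 of 13 males above all females and a log2 fold of 2.07 ± 0.48 (SE, adjusted p = 0.00775). Male 2, with the most TTR (2743 CPM), also had the most TF and ACKR3, and male 8, with the least TTR, had the least TF and SOD3 of the males. All 3 calls were lost in limma voom (adjusted p = 0.0835 for TF, 0.103 for ACKR3 and 0.151 for SOD3) and with the choroid plexus and ependymal covariate, where the values were log2 fold 0.79, adjusted p = 0.167 for TF, log2 fold 1.64, adjusted p = 0.0697 for ACKR3 and log2 fold 1.41, adjusted p = 0.195 for SOD3.

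Choroid plexus and ependymal markers were measured beside these genes. Of 30 listed, 25 were in the table, 11 were tested, 2 rose (TTR and SLC4A2) and 0 fell, with a median log2 fold of 0.29 against -0.01 over all genes on neither sequence. The summed level of the list without TTR was 456, 749 and 1277 CPM in males (lowest, median and highest) and 400.5, 606 and 1014 CPM in females, so the sexes overlapped. OTX2, a transcription factor of the choroid plexus, ranged from 0 to 16.5 CPM in males and from 0 to 1.43 CPM in females, and SLC13A4, a sulphate transporter of that tissue, averaged 14.3 ± 20.6 CPM in males and 1.01 ± 0.912 CPM in females. Neither passed the low-count filter, so neither entered the covariate, the mean level of the tested genes of this list without TTR. KL, which encodes klotho, averaged 14.3 ± 10.1 CPM in males and 5.52 ± 2.97 CPM in females (log2 fold 1.32, adjusted p = 0.101). SLC4A2, an anion exchanger, had 18.2 to 49.3 CPM in males (median 23.3) and 8.24 to 23.2 CPM in females (median 16.8) and rose with a log2 fold of 0.70, adjusted p = 0.0216, a call lost without female 4 (adjusted p = 0.0523) and with the covariate. The covariate includes SLC4A2 itself, so that last loss is partly built in. The ependymal genes FOXJ1 (log2 fold -0.53, adjusted p = 0.508) and TEKT1 (log2 fold -0.30, adjusted p = 0.685) had log2 folds below 0 that did not pass the test, and CLIC6, CFAP126, TEKT2 and PIFO had no count in any library. How much of the sex difference in these genes came with choroid plexus tissue in the sample was not tested beyond the covariate.

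The remaining genes that rose were held at lower folds and, for some, with less overlap. Carbonic anhydrase 15, named by its description, had 7.49, 23.2 and 37.4 CPM in males (lowest, median and highest) and 4.26, 9.81 and 13.8 CPM in females, with 11 of 13 males above all females and a log2 fold of 1.27 ± 0.23 (SE, adjusted p = 0.000387). The cystatin-like gene had 48.2, 119.7 and 201 CPM in males (lowest, median and highest) and 30.1, 57.2 and 64.6 CPM in females, with 12 of 13 males above all females and a log2 fold of 1.14 ± 0.21 (SE, adjusted p = 0.000441). These, a gene described as PIAS2-like, another described as an inactive phospholipase C-like protein and histone PARylation factor 1 carry no symbol and were chosen after their values were seen. SEMA3F, a secreted axon guidance cue, had 11.6, 43.0 and 72.1 CPM in males (lowest, median and highest) and 6.45, 17.1 and 30.4 CPM in females, with a log2 fold of 1.22 ± 0.25 (SE, adjusted p = 0.00202). ADAMTS15, a protease of the extracellular matrix, averaged 12.8 ± 4.51 CPM in males and 6.25 ± 3.26 CPM in females, with a log2 fold of 0.99 ± 0.23 (SE, adjusted p = 0.00758). The male median lay above the highest female in carbonic anhydrase 15, the cystatin-like gene and SEMA3F and below it in ADAMTS15.

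D1DR, a dopamine receptor of the D1 family, averaged 6.73 ± 2.32 CPM in males and 3.09 ± 1.57 CPM in females and rose with a log2 fold of 1.08, adjusted p = 0.0148, a call lost with the choroid plexus covariate (log2 fold 0.93, adjusted p = 0.0658). ALDH1A2, which makes retinoic acid and marks the meninges, had 15.0 to 78.1 CPM in males (median 37.9) and 10.3 to 34.0 CPM in females (median 16.3), with a log2 fold of 0.94 ± 0.25 (SE, adjusted p = 0.0267). It lost its call in 8 of the 23 fits without a bird, with bird 260 included (log2 fold 0.77, adjusted p = 0.133), in limma voom (log2 fold 0.87, adjusted p = 0.0696) and with the choroid plexus covariate (log2 fold 0.63, adjusted p = 0.11) or the depth covariate (log2 fold 0.83, adjusted p = 0.0658). UTS2B, a urotensin-type peptide, rose with a log2 fold of 1.43, adjusted p = 0.0329, and lost its call in 9 of those fits without a bird, in limma voom (adjusted p = 0.185) and with the choroid plexus (0.258) or depth covariate (0.0942). RPUSD1, a pseudouridine synthase, rose with a log2 fold of 0.68, adjusted p = 0.0202, a call lost with the choroid plexus covariate (log2 fold 0.61, adjusted p = 0.0678). VASN, SUPT16H, CAMK1D and KCNC4 rose by 0.90, 0.59, 0.51 and 0.48 on the log2 scale with adjusted p between 0.0382 and 0.0497, and each lost its call in 11 or more fits without a bird (highest adjusted p = 0.0979). The PIAS2-like gene, on a sequence not placed on a chromosome, averaged 52.0 ± 9.46 CPM in males and 31.3 ± 8.36 CPM in females and rose with a log2 fold of 0.69, adjusted p = 0.00202, a call lost with bird 260 included (log2 fold 0.56, adjusted p = 0.0568). The phospholipase C-like gene rose with a log2 fold of 0.49, adjusted p = 0.0439, a call lost in 15 of the fits without a bird, in limma voom and with either covariate. DLGAP3, a postsynaptic scaffold, was the other gene that rose, with a log2 fold of 0.46.

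The genes that fell in males did so by small amounts, with log2 folds of -0.24 to -0.92. Histone PARylation factor 1, which directs ADP-ribosylation to serines at damaged chromatin, had 66.2, 85.4 and 114 CPM in males (lowest, median and highest) and 112, 118 and 131 CPM in females, with 12 of 13 males below all females and a log2 fold of -0.52 ± 0.08 (SE, adjusted p = 6.21e-05). PSMA4, an alpha subunit of the proteasome core, had 109, 124 and 146 CPM in males (lowest, median and highest) and 139, 153 and 158 CPM in females, with 11 of 13 males below all females and a log2 fold of -0.30 ± 0.06 (SE, adjusted p = 0.00215). CRKL, a signalling adaptor, averaged 92.4 ± 8.90 CPM in males and 116 ± 12.0 CPM in females (log2 fold -0.37 ± 0.08 (SE, adjusted p = 0.00413)), and DCUN1D4, a factor of cullin neddylation, averaged 189 ± 15.1 CPM in males and 227 ± 16.8 CPM in females (log2 fold -0.30 ± 0.07 (SE, adjusted p = 0.00596)). Both also had 11 of 13 males below all females. SH3GL3, an endophilin of membrane curvature, averaged 331 ± 32.8 CPM in males and 409.7 ± 52.1 CPM in females, with more overlap and a log2 fold of -0.34 ± 0.07 (SE, adjusted p = 0.00262).

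ALG12, a mannosyltransferase of N-glycan synthesis, fell with a log2 fold of -0.43, adjusted p = 0.0225, and lost its call without female 6 (adjusted p = 0.0662), female 1 (0.0541) or female 18 (0.0715), and with either covariate. DNER, a Notch ligand of neurons, averaged 735 ± 139.8 CPM in males and 945 ± 168 CPM in females (log2 fold -0.40 ± 0.11 (SE, adjusted p = 0.0477)). HSPA5, the chaperone BiP of the endoplasmic reticulum, averaged 257 ± 38.0 CPM in males and 309.8 ± 51.1 CPM in females (log2 fold -0.30 ± 0.09 (SE, adjusted p = 0.0454)), and RHEB, the GTPase that activates mTOR, averaged 245 ± 27.4 CPM in males and 294 ± 35.2 CPM in females (log2 fold -0.29 ± 0.08 (SE, adjusted p = 0.0366)). GNL3, RGS3, PTPN2, RAP2C, MTSS1 and SEPTIN7 fell too, with log2 folds of -0.92, -0.76, -0.34, -0.30, -0.27 and -0.26. These 9 calls from DNER onward had adjusted p between 0.0317 and 0.0481, and each was lost in 10 or more of the 23 fits without a bird (highest adjusted p = 0.151). Other genes that fell were EIF4A2, SRPK2, DNAJB6, SKP1 and C2H6orf62, which lay below the number named by rule and have log2 folds smaller in size than that of SEPTIN7.

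**Figure D4:**
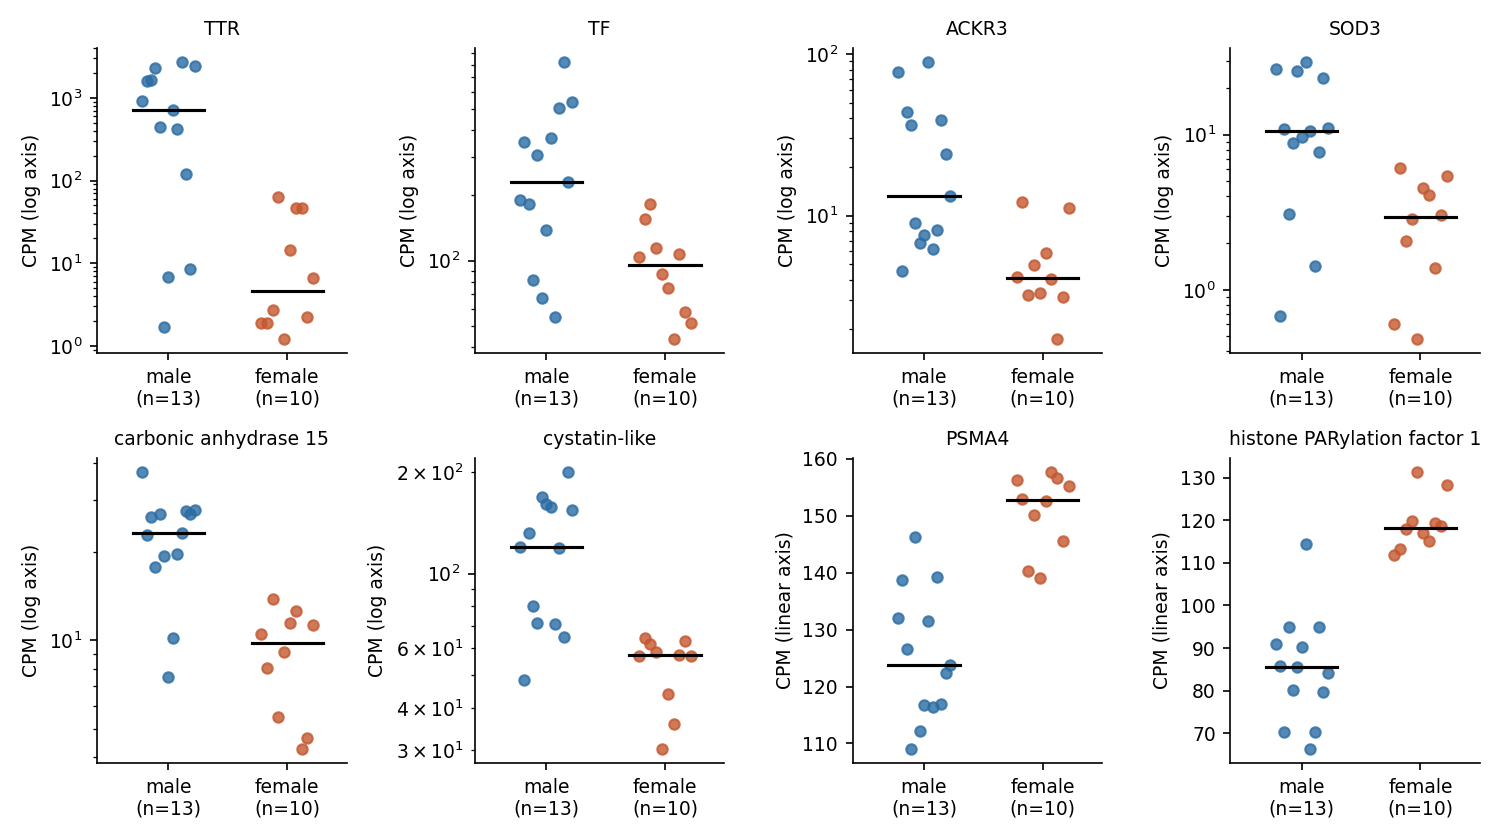
CPM in the caudal hippocampus of each bird (points, 13 males left and 10 females right; bar, group median) for 6 genes that rose and 2 that fell in males; the first 6 panels have log axes and the last 2 linear axes that do not start at 0. TTR spreads over 1.70 to 2743 CPM within males, whereas PSMA4 and histone PARylation factor 1 differ by small amounts with 11 and 12 of 13 males below all females.

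Lists of cell types and signalling genes showed few calls. The shares to read them against are 0.235% higher and 0.247% lower among genes on neither sequence. Of 25 tested genes of pallial glutamatergic neurons, 0 were called by edgeR, with 2 higher and 6 lower at an unadjusted p under 0.05, 1 called lower by DESeq2 and 1 called lower by limma voom, and a median log2 fold of -0.11. NEUROD6 averaged 50.7 ± 16.2 CPM in males and 71.7 ± 17.1 CPM in females (log2 fold -0.54, adjusted p = 0.0702). Without male 8, 2 genes of this list were called lower, NEUROD6 among them. Of 18 tested genes of GABAergic interneurons, 0 were called by edgeR, DESeq2 or limma voom, with 1 higher and 2 lower at an unadjusted p under 0.05 and a median of -0.06. Of 23 genes of striatal projection neurons, 0 were called by any of these tools, with 3 higher and 2 lower at an unadjusted p under 0.05 and a median of 0.0028. Of 10 astrocyte genes and 9 oligodendrocyte genes, 0 were called by any of these tools and 0 had an unadjusted p under 0.05, with medians of -0.06 and 0.07. For erythrocyte genes, 2 were tested and 0 called by these tools, with 0 at an unadjusted p under 0.05, and HBAD averaged 34.6 ± 12.9 CPM in males and 40.6 ± 12.9 CPM in females (log2 fold -0.26, adjusted p = 0.673). Of 19 vascular and meningeal genes, ALDH1A2 and the Z gene FOXD1 rose (log2 fold 1.35, adjusted p = 0.0269 for FOXD1, a call lost in 5 of the 14 fits without a bird in which it passed the low-count filter, in limma voom, with no filter on low counts and with bird 260 included, log2 fold 0.98, adjusted p = 0.219) and 0 fell, with a median of 0.03. DCN averaged 18.9 ± 8.99 CPM in males and 13.2 ± 10.1 CPM in females (log2 fold 0.48, adjusted p = 0.573) and CLDN5 17.0 ± 8.89 CPM in males and 12.9 ± 7.24 CPM in females (log2 fold 0.35, adjusted p = 0.683).

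Of 19 immediate early genes, HOMER1 was the 1 that rose and 0 fell, with a median log2 fold of -0.17. EGR1 averaged 179 ± 34.7 CPM in males and 187 ± 44.2 CPM in females (log2 fold -0.09, adjusted p = 0.838), FOS 80.9 ± 45.2 CPM in males and 96.7 ± 36.1 CPM in females (log2 fold -0.29, adjusted p = 0.727) and ARC 90.6 ± 33.6 CPM in males and 102 ± 17.9 CPM in females (log2 fold -0.21, adjusted p = 0.694). Of 16 genes of the glucocorticoid and stress axis, 0 were called by edgeR, DESeq2 or limma voom, with 1 higher and 1 lower at an unadjusted p under 0.05 and a median of -0.03. The glucocorticoid receptor NR3C1 averaged 74.7 ± 12.6 CPM in males and 69.9 ± 10.9 CPM in females (log2 fold 0.06 ± 0.10 (SE, adjusted p = 0.881)), and the mineralocorticoid receptor NR3C2 averaged 249.8 ± 36.7 CPM in males and 284 ± 37.6 CPM in females (log2 fold -0.22 ± 0.08 (SE, adjusted p = 0.203)). FKBP5, a co-chaperone induced by glucocorticoids, averaged 89.3 ± 47.1 CPM in males and 63.9 ± 15.7 CPM in females (log2 fold 0.45, adjusted p = 0.499).

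Of 7 tested genes of sex steroid signalling, 1 rose, the Z gene HSD17B4, a peroxisomal enzyme of fatty acid and steroid metabolism, with 98.3 to 141 CPM in males (median 114) and 46.2 to 81.8 CPM in females (median 57.8) and a log2 fold of 0.89 ± 0.09 (SE, adjusted p = 3.63e-08). Every male was above every female. CYP19A1, the aromatase that turns androgens into oestrogens, had 1.36 to 35.9 CPM in males (median 21.7) and 4.07 to 18.8 CPM in females (median 8.29), with 8 of 13 males above all females. Its log2 fold of 1.06 ± 0.32 (SE, adjusted p = 0.0645) missed the threshold. It was called in DESeq2 (log2 fold 1.06, adjusted p = 0.0197) and without male 8 (adjusted p = 0.00399), female 13 (0.0292) or male 15 (0.0346). Male 8 had the lowest value of the males. The oestrogen receptor ESR1, at 3.26 ± 4.60 CPM in males and 0.771 ± 0.605 CPM in females, did not pass the low-count filter. Of 17 monoamine receptor and transporter genes, D1DR rose and 0 fell, with a median of 0.09. DRD1 averaged 91.8 ± 21.4 CPM in males and 74.3 ± 12.8 CPM in females (log2 fold 0.27 ± 0.12 (SE, adjusted p = 0.35)), the Z gene HTR1A, a serotonin receptor, averaged 5.94 ± 2.45 CPM in males and 2.67 ± 1.79 CPM in females (log2 fold 1.09, adjusted p = 0.0542), and DRD2, at 1.40 ± 1.17 CPM in males and 0.766 ± 0.612 CPM in females, did not pass the filter. Of 11 genes of thyroid hormone and retinoid transport, TTR, ALDH1A2 and TF rose and 0 fell, with a median of 0.30, and none of those 3 calls was kept in limma voom. In the lists where some genes rose and 0 fell, DESeq2 and limma voom also called 0 lower. At an unadjusted p under 0.05, edgeR had 0 lower in the choroid plexus, immediate early and monoamine lists, 1 in the vascular and sex steroid lists, and 2 in the thyroid hormone and retinoid list. Without male 8, KL of the choroid plexus list, HTR1A of the monoamine list, TAGLN of the vascular list and LAMP5 of the GABAergic list were also called higher, and FOXP1 of the striatal list and NPY of the GABAergic list were called lower, while FOXD1 fell below the low-count filter. The numbers called in the astrocyte, oligodendrocyte, erythrocyte, immediate early, stress axis and thyroid hormone lists did not move.

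The same birds gave the same comparison in the rostral hippocampus and the striatum. Of the Z genes tested there, 239 of 409 rose in the rostral hippocampus (58.4%, median log2 fold 0.74) and 187 of 394 in the striatum (47.5%, median 0.75). Of the 229 Z calls in the caudal hippocampus, 181 were also called in the rostral hippocampus (79.0% of the caudal and 75.7% of the rostral calls) and 165 in the striatum (72.1% of the caudal and 88.2% of the striatal calls). Of genes on neither sequence, 306 of 8639 were called in the rostral hippocampus (3.54%) and 8 of 8388 in the striatum (0.0954%). Of the 41 caudal calls, 3 were among the rostral calls (7.32% of the caudal and 0.980% of the rostral calls) and 2 among the striatal calls (4.88% and 25%). Only 37 of the 41 were tested in the rostral hippocampus and 35 in the striatum, so the rest could not be shared. ALDH1A2, 1 of the 3 shared with the rostral hippocampus, went opposite ways (log2 fold 0.94 caudal and -1.58 rostral). PSMA4 and the PIAS2-like gene were called in all 3 regions. The PIAS2-like gene is on a sequence not placed on a chromosome, so whether it is a Z gene is not known. PSMA4 fell with log2 folds of -0.32 ± 0.08 (adjusted p = 0.0109) in the rostral hippocampus and -0.30 ± 0.08 (adjusted p = 0.0291) in the striatum, and the PIAS2-like gene rose there with log2 folds of 0.80 and 0.62. The regions come from the same birds, so these are not independent samples.

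The difference between the sex effects was tested directly, over 69 libraries with bird as a block. Between the caudal hippocampus and the striatum, 0 of 9788 genes differed in edgeR or limma voom, with 330 at an unadjusted p under 0.05. Between the caudal and the rostral hippocampus, 184 genes differed (1.88%), 6 of them on the Z and 178 on neither sequence, of which 109 had a higher (1.17%) and 69 a lower (0.741%) caudal log2 fold. Without the caudal library of male 8 the number was 447. Among the genes called in the caudal hippocampus, TF had a caudal minus rostral difference of 1.96 ± 0.41 (SE, adjusted p = 0.0095). Its rostral levels were 86.9 ± 31.4 CPM in males and 124 ± 45.7 CPM in females, with a log2 fold of -0.52 ± 0.19 (adjusted p = 0.104). ALDH1A2 differed by 2.35 ± 0.51 (SE, adjusted p = 0.0138), as it rose in the caudal and fell in the rostral hippocampus of males, where it averaged 14.8 ± 11.8 CPM in males and 43.3 ± 31.7 CPM in females and the log2 fold was -1.58 ± 0.40 (adjusted p = 0.0143). Carbonic anhydrase 15 differed by 3.15 ± 0.73 (SE, adjusted p = 0.0164), with rostral levels of 2.09 ± 2.22 CPM in males and 7.22 ± 4.79 CPM in females. SEMA3F differed by 1.32 ± 0.32 (SE, adjusted p = 0.0236), CAMK1D by 0.72 ± 0.19 (SE, adjusted p = 0.0361) and the phospholipase C-like gene by 0.83 ± 0.20 (SE, adjusted p = 0.0191). ACKR3 differed by 2.12 ± 0.57 (SE, adjusted p = 0.0345), a call lost when the striatum was left out of the fit (log2 fold 1.99, adjusted p = 0.0757). In the rostral hippocampus alone ACKR3 was below the low-count filter, at 2.53 ± 1.31 CPM in males and 2.75 ± 1.70 CPM in females. DNER, lower in males in the caudal hippocampus, differed by -0.81 ± 0.20 (SE, adjusted p = 0.0262). The Z gene annotated as TLE4, without a called difference in the caudal hippocampus, rose in the rostral hippocampus with a log2 fold of 1.17 ± 0.26 (adjusted p = 0.00517), and the difference was -1.36 ± 0.30 (SE, adjusted p = 0.016). It also rose in the striatum, with a log2 fold of 0.38 (adjusted p = 0.0467), at 194 ± 29.2 CPM in males and 147 ± 20.9 CPM in females.

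The 5 genes with the smallest p for that difference had no called sex effect in the caudal hippocampus itself. NPY, the neuropeptide of inhibitory interneurons, averaged 68.1 ± 29.2 CPM in males and 94.1 ± 17.8 CPM in females in the caudal hippocampus and 136 ± 66.0 CPM in males and 53.6 ± 30.5 CPM in females in the rostral hippocampus. Its log2 fold was -0.50 ± 0.19 (SE, adjusted p = 0.223) in the caudal and 1.34 ± 0.29 (adjusted p = 0.00313) in the rostral hippocampus, a difference of -1.94 ± 0.28 (SE, adjusted p = 6.84e-05). Without male 8 the caudal difference was called (adjusted p = 0.0412). DLK1, a non-canonical Notch ligand, averaged 34.8 ± 12.0 CPM in males and 50.6 ± 14.9 CPM in females in the caudal and 42.1 ± 16.6 CPM in males and 22.5 ± 11.3 CPM in females in the rostral hippocampus, a difference of -1.49 ± 0.23 (SE, adjusted p = 0.000169). CDH22, a cell adhesion cadherin, averaged 125 ± 45.6 CPM in males and 67.2 ± 32.7 CPM in females in the caudal and 55.5 ± 44.0 CPM in males and 155 ± 65.3 CPM in females in the rostral hippocampus, a difference of 2.62 ± 0.50 (SE, adjusted p = 0.00697). KCTD6 differed by -0.77 ± 0.15 (SE, adjusted p = 0.00697) and ST18, a zinc finger factor, by -2.53 ± 0.49 (SE, adjusted p = 0.00697). DRD1 had a difference of 0.63 ± 0.18 (SE, adjusted p = 0.0462), with log2 folds of 0.27 in the caudal and -0.34 in the rostral hippocampus, neither called. In these 6 genes the caudal and rostral folds had opposite signs, and the striatal folds lay between -0.11 and 0.06. All 6 are given here for their caudal minus rostral difference in these same data, a choice that itself favours opposite signs.

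**Figure D5:**
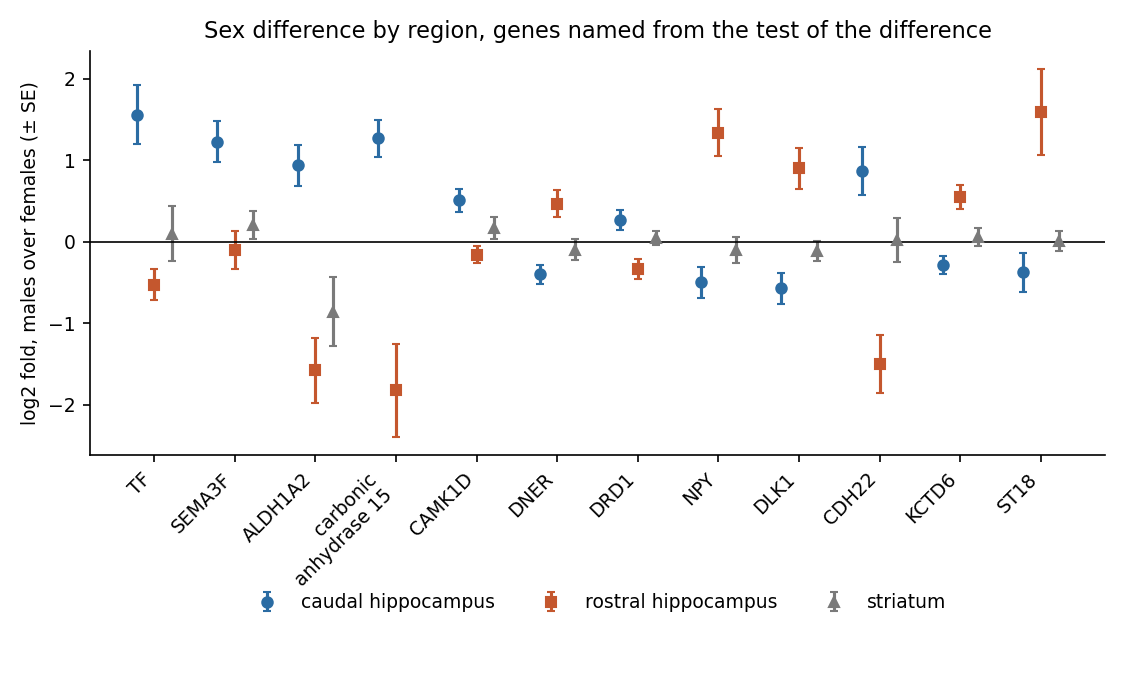
Fitted log2 folds, males over females, with their SE, in caudal hippocampus (circles), rostral hippocampus (squares) and striatum (triangles) of the same 13 males and 10 females, for 12 genes whose sex effect differed between the caudal and rostral hippocampus; carbonic anhydrase 15 was below the low-count filter in the striatum. Genes from TF to CAMK1D, DRD1 and CDH22 are higher in the caudal than in the rostral estimate, DNER, NPY, DLK1, KCTD6 and ST18 lower, and the striatal estimates other than ALDH1A2 lie near 0.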

How the data were processed

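Total RNA of the 3 regions was sequenced, with a library per bird and region. The authors deposited a single table of raw counts per gene for all libraries. The submitters' processing notes name HISAT2 and StringTie. The build, annotation, versions and strand setting were not stated in the labels or the table, and 0 gene identifiers but 12417 symbols matched the P. montanus RefSeq table, so the annotation may be of another species. Z, W and other genes were taken from the chromosome column of the deposited count table.

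Genes were filtered with filterByExpr (minimum count 10, total 15), scaled by TMM and tested with the quasi-likelihood test of edgeR 4.0.16 (R 4.3.3), males over females, with Benjamini-Hochberg adjustment over all 8926 genes and a threshold of 0.05. Every adjusted p comes from the edgeR quasi-likelihood test unless another tool is named, and SE is the absolute log2 fold divided by the square root of F. Each other fit was adjusted over its own tested genes, 9078 in the rostral hippocampus, 8813 in the striatum and 9788 in the main regional contrast. CPM is the count divided by the library total, times 1e6. The lists and the members were chosen with earlier results of these data known. Named genes were the 10 Z genes with the smallest p, the 6 called Z genes with the largest and the 6 Z genes of at least 5 CPM with the lowest folds, up to 15 called genes per direction on neither sequence with a symbol and at least 1 CPM, the 8 highest W genes and CHD1W, up to 4 called members of each list (or the 1 with the largest fold where none was called), a set of receptors and carriers of prior interest, and the 5 genes with the smallest p in each regional contrast. Further list members were chosen after their values were seen. Some genes that this rule names are not reported here. The regional contrast used bird as a block, since the 3 libraries of a number come from the same bird, and same-bird deviations from the group means correlated at a median of 0.154 between caudal and rostral hippocampus (different birds -0.0046). Alternatives were other scalings, filters, covariates and libraries, DESeq2 1.42.0 and limma 3.58.1 voom. The scripts were tested on simulated data. No pair of libraries of the same sex was alike within counting noise (the smallest chi-square was 5.87 times its degrees of freedom).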

Additional observations from a re-analysis of the deposited data

Results flagged for a closer look

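Among the 98 values of the 10 females tested for a bird far from the others, 5 were marked, 3 of which are given here, and chance marks about 1 in 20. EPG5 was 40.9 CPM in female 21, against 22.2 CPM in the next. The W copy of SUB1 was 91.3 CPM in female 13, against 69.5 CPM in the next. FOXD1 was 3.80 CPM in female 18, against 1.79 CPM. Groups of 13 were not examined in this way.

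The sex effect differed between caudal and rostral hippocampus, by the test of the difference itself, for the 15 named genes listed next, among others. The log2 difference, caudal minus rostral, was above 0 for carbonic anhydrase 15 (3.15), CDH22 (2.62), ALDH1A2 (2.35), ACKR3 (2.12), TF (1.96), SEMA3F (1.32), the phospholipase C-like gene (0.83), CAMK1D (0.72) and DRD1 (0.63). It was below 0 for ST18 (-2.53), NPY (-1.94), DLK1 (-1.49), the Z gene annotated as TLE4 (-1.36), DNER (-0.81) and KCTD6 (-0.77). Further genes mentioned above also differed, among them KL (3.13), MEF2C (0.98) and FOXJ1 (-2.59).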

How the results depend on the processing

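Of 60 called genes followed through up to 32 alternatives, all 60 kept their direction and 30 were called in each fit in which they passed the low-count filter. FOXD1 had a value in 22 of these fits, and KLF4, CREB3, D1DR, VASN and GNL3 in 31. The number of Z genes that rose stayed within 1.5 times of 229 throughout, at 210 to 233 when each bird was left out in turn. The median Z log2 fold was 0.70 with bird 260 included, and 0.75 to 0.79 without each bird. Genes on neither sequence that rose and fell numbered 25 and 12 with TMM factors from those genes alone, 37 and 54 in DESeq2, 13 and 32 in limma voom, 31 and 11 with no filter on low counts, and 13 and 13 with log2 total count as a covariate. With the choroid plexus and ependymal covariate 11 rose. Leaving out each bird in turn gave 12 to 45 that rose and 10 to 83 that fell, with the highest numbers of both without male 8. Calls on the Z and on neither sequence together numbered 270, 232 with bird 260 included, and 235 to 361 without each bird. The sign turned for ONECUT2 with the choroid plexus covariate (0.10) and with the depth covariate (0.0086), and for ATP8B1 with these (0.13 and 0.014). ATP8B1 ranged from -0.23 to 0.083 without each bird, above 0 without female 6 (0.083) and without female 18 (0.045). Neither was called in any of the fits. The cause was not tested.

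Of the regional contrast, 184 genes differed between caudal and rostral hippocampus with the bird block, 133 with no replicate block, 247 with bird 260 included, 153 when the striatum was left out, 221 in limma voom and 447 without the caudal library of male 8, an alternative chosen after seeing the data. Against the striatum 0 were called with or without the block. Depth limits the low genes: ESR1 and DRD2 were too sparse to test.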
